A study of Mus musculus with 4 samples.

Results

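The amino acid response is the programme by which cells adjust to a shortage of amino acids, and 50 genes of this programme and of tRNA charging were followed in sorted cells of the mouse embryonic neural tube that carried or lacked functional *Prdm13*. The 50 genes were taken from the 24421 genes of the deposited expression table by their symbol, and all 50 were found. They comprise 7 transcription factors and regulators of the response, 5 growth and stress effectors, 5 enzymes of serine and one-carbon metabolism, 5 other enzymes of amino acid metabolism, 8 amino acid transporters and the 20 listed cytosolic aminoacyl-tRNA synthetases. The set was chosen by the measured fold changes of the same mutant and control libraries, with results of that comparison already known. Its counts and levels are therefore given as a description, without p-values for its genes.

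PRDM13 is a zinc finger transcription factor of the dorsal neural tube that acts in the choice between inhibitory and excitatory interneurons. The *Prdm13* GFP allele places GFP in the *Prdm13* locus and disrupts production of the protein. Controls were embryos with 1 such allele (*Prdm13* GFP/+, labelled Het), so the control cells also carried a mutated allele, and mutants had the allele on both chromosomes (*Prdm13* GFP/GFP, labelled Homo). All embryos were at E11.5 and on a mixed ICR and C57Bl/6 background. GFP-positive cells were sorted from neural tubes dissociated with trypsin, so each sample is a mixture of the cells in which the *Prdm13* locus was or had recently been active. RNA of several embryos of a genotype was combined into 1 pool, and 2 polyadenylated RNA libraries were made from each pool. The 2 libraries from one pool repeat the library preparation alone, and variation between embryos is not part of any error given here.

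Amino acid shortage leaves tRNAs uncharged, and uncharged tRNA activates the kinase GCN2, which phosphorylates the translation initiation factor eIF2. General protein synthesis then slows while the mRNA of *Atf4* is translated more, so ATF4 activity is set largely at the level of translation. ATF4 pairs with C/EBP and other factors on C/EBP-ATF response elements in the promoters of genes for amino acid synthesis, uptake and tRNA charging. Aminoacyl-tRNA synthetases join each amino acid to its tRNA and are used by every cell that makes protein.

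The promoters of the genes were examined for the core of this element, since it is the sequence through which the programme is known to act. The search used TGATGNAA on either strand, in 300 bases that ran from 250 before to 50 after each RefSeq transcript start of GRCm38.p6. Of the 50 genes, 38 had an entry with 41 promoters between them. The core was present in 12 of the 41 promoters (29.3%), belonging to 12 of the 38 genes: *Asns*, *Chac1*, *Pck2*, *Slc1a4*, *Slc7a11*, *Trib3*, *Nupr1*, *Aars*, *Gars*, *Iars*, *Tars* and *Yars*. It was present in 3.97% of all 32851 promoters of the same length and in 1.99% of the 12126 promoters of genes tested for a difference in expression. *Slc7a11* and *Aars* each held 2 matches. The E-box of MYC and MAX, CACGTG, a palindrome that can share its end letters with the core, was present in 6 of the 41 promoters (14.6%), against 7.15% of all promoters and 9.94% of those of tested genes. No entry was found for *Eif4ebp1*, *Cth*, *Slc7a3*, *Slc7a5*, *Slc1a5*, *Cars*, *Hars*, *Lars*, *Nars*, *Rars*, *Vars* and *Wars*.

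The stretch around the core is shown for the 4 called genes that held it, and for *Iars* and *Tars*, synthetases chosen after their values were seen. Each is given 5′ to 3′ on the strand of the gene, with the match in capitals: TGATGNAA itself in *Asns*, and its reverse complement in the others. The stretches lie at chr6:7693205-7693272 on the minus strand (*Asns*), chr2:119351009-119351076 on the plus strand (*Chac1*), chr14:55540123-55540190 on the plus strand (*Pck2*), chr11:20332699-20332757 on the minus strand (*Slc1a4*), chr13:49682097-49682144 on the plus strand (*Iars*) and chr15:11399646-11399713 on the minus strand (*Tars*) of GRCm38.p6. Relative to the transcript start, the match began at position -23 in *Asns*, -193 in *Chac1*, -103 in *Pck2*, -4 in *Slc1a4*, 8 in *Iars* and -15 in *Tars*.
Asns: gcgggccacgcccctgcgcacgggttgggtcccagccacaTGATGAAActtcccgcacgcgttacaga
Chac1: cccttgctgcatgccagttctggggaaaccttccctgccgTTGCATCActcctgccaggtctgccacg
Pck2: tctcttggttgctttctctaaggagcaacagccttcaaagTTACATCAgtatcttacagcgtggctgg
Slc1a4: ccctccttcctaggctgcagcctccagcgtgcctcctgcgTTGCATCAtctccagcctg
Iars: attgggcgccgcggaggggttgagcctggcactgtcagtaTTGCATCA
Tars: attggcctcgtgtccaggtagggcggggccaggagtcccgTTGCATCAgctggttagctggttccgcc
A match is a description of the letters in these windows and does not show that a factor binds there.

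Expression was given as RPKM, a read count scaled to the exon length of the gene and to the size of the library, and reads recovered from these values came to between 11652156 and 18534083 per library. A gene was tested if its mean RPKM reached 1 in either genotype, which left 12046 genes. It was called if limma gave a Benjamini-Hochberg adjusted p under 0.05 over all tested genes and the fold change on log2(RPKM + 0.1) was at least 1.5. Fold changes below are mutant minus control on that log2 scale, and the fold of means is the ratio of mean RPKM. The targeted gene read 114 and 127 RPKM in the control libraries and 310 and 324 RPKM in the mutant libraries, a log2 fold change of 1.40, and the RNA measured in the mutant comes from the disrupted alleles. Markers of the sorted cells differed between the pools in opposite directions: 8 of 8 dorsal inhibitory markers were called lower (summed 523 and 561 RPKM in controls, 99.5 and 106 in mutants) and 7 of 7 dorsal excitatory markers higher (30.4 and 33.3 against 195 and 201). Pan-neuronal markers summed to 1792 and 1839 RPKM in controls and 2354 and 2448 in mutants, with 4 of 10 called higher and 1 called lower, and progenitor markers to 1439 and 1487 against 1498 and 1570, of which *Vim* gave 932 to 986 RPKM in each library. Of the 7 progenitor markers, *Sox1* (-0.68) was called lower, and at an adjusted p under 0.05 *Sox2* (-0.48) was also lower and *Sox3* (0.54), *Hes5* (0.42) and *Pax6* (0.26) were higher. Of the other lineages, summed levels were 47.2 to 49.7 RPKM for 9 erythroid markers (4 at 0 in all libraries), 2.45 to 3.55 for 6 endothelial, 3.48 to 5.11 for 6 mesenchymal, 14.7 to 18.0 for 6 neural crest and dorsal root ganglion and 0.17 to 0.37 for 5 microglial and blood markers. These are bulk measurements of sorted populations, so fewer cells of a type and less RNA per cell cannot be told apart, and the part of this shift in cell makeup in the values below was not tested.

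In the *Prdm13* mutant cells, 4 transporter genes, 3 enzyme genes and 4 effector genes of the response fell, *Phgdh* rose, and none of the tested transcription factor genes was called. Of the 50 genes, 46 reached the RPKM minimum, and *Cebpb*, *Nupr1*, *Trib3* and *Slc7a11* did not. Of the 46, 11 were called lower in the mutant (23.9%), against 2.67% of all genes tested (322 of 12046), and 1 was called higher, against 3.65% (440 of 12046). The remaining 34 were not called. At an adjusted p under 0.05 with no minimum on the fold, 24 were lower and 1 higher, against 9.95% and 9.76% of all genes tested. The direction of the difference was negative for 34 and positive for 12, and the median log2 fold change was -0.29, against 0.01 over all genes tested. Both mutant libraries lay below both control libraries for 29 of the 46, above them for 4, and the genotypes overlapped for 13, against 30.3% of all genes tested lying below and 31.7% above. The set was chosen with this comparison known, so nothing is read from these shares. *Chac1* and *Slc7a3* passed the RPKM minimum in the controls alone, so for these 2 genes passing the minimum already required a difference.

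**Figure D1:**
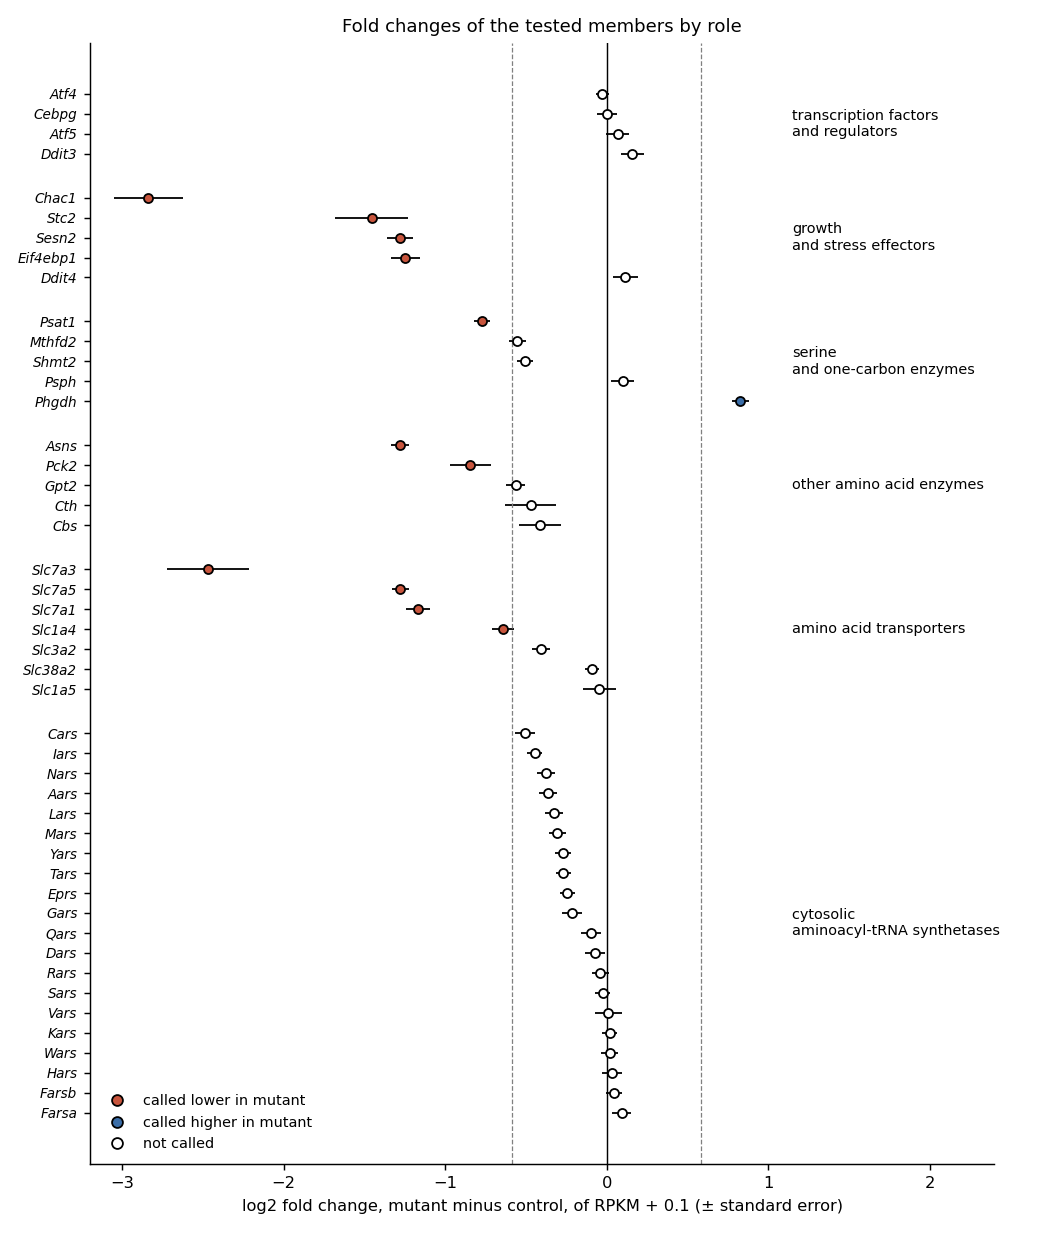
Log2 fold change of RPKM + 0.1, mutant minus control, for the 46 tested genes by role, with bars of 1 standard error and dashed lines at a fold of 1.5 in either direction. The 11 genes called lower lie among the effectors, enzymes and transporters, *Phgdh* alone was called higher, and the synthetases run from -0.51 to 0.09.

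Of the 7 transcription factors and regulators, 4 were tested and none was called, at an adjusted p under 0.05 or otherwise. *Atf4*, the central activator of the response (gene ID 11911, chr15:80255184-80257545), read 140.2 and 139.4 RPKM in the control libraries and 136.7 and 137.8 RPKM in the mutant libraries. The mutant libraries lay just below the controls, with a log2 fold change of -0.03 ± 0.041 (SE). *Ddit3*, which encodes the C/EBP-family factor CHOP, had the most positive value of the 4, at 19.7 and 18.2 RPKM in controls and 22.2 and 20.1 in mutants, a log2 fold change of 0.16 ± 0.072. The genotypes did not overlap for *Ddit3*, and its annotated span shares 71 bases with that of *Mars*, so reads in that stretch could belong to either gene. *Atf5*, an ATF4 relative, had a log2 fold change of 0.07, and *Cebpg*, a dimer partner of ATF4, one of 0.00. The summed level of the 7 genes was 191.8 and 189.4 RPKM in the controls and 191.9 and 189.4 RPKM in the mutants, so the groups overlapped.

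The 3 regulators below the RPKM minimum rested on few reads. *Trib3*, a pseudokinase gene induced by ATF4 whose product restrains it, read 0.800 and 1.09 RPKM in controls and 0.420 and 0.392 in mutants, from 19 and 41 reads against 14 and 11. Both mutant libraries were below both controls. *Cebpb*, a C/EBP factor gene, read 0.797 and 0.395 RPKM in controls and 0.365 and 0.626 in mutants, which overlapped. *Nupr1*, a stress-response gene, read 0.276 and 0.262 RPKM in controls and 0.393 and 1.05 in mutants. Its libraries held 2, 3, 4 and 9 reads, and 3 reads is the limit of detection used here, so no fold is given.

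Of the 5 growth and stress effectors, 4 fell in the mutant and 1 was not called. *Chac1* (gene ID 69065, chr2:119351242-119354326) encodes an enzyme that degrades glutathione, and it had the most negative fold change of all 46 genes. It read 5.12 and 6.54 RPKM in the control libraries and 0.588 and 0.885 in the mutant libraries, from 93 and 188 reads against 15 and 19. The control mean was 7.92 times the mutant mean, and the log2 fold change was -2.84 ± 0.21. *Stc2*, for the secreted glycoprotein stanniocalcin 2 (gene ID 20856, chr11:31359441-31370061), read 3.04 and 3.10 RPKM in controls and 0.823 and 1.35 in mutants, from 63 and 102 reads against 24 and 33. Its mutant libraries differed from each other more than its control libraries did, and the log2 fold change was -1.46 ± 0.23. Without control library 2 *Stc2* was no longer called.

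*Sesn2* and *Eif4ebp1* are brakes on growth: sestrin 2 is a leucine sensor that restrains mTORC1, and 4E-BP1 blocks cap-dependent translation. *Sesn2* (gene ID 230784, chr4:132492804-132510456) read 12.1 and 11.7 RPKM in controls and 4.56 and 5.12 in mutants, 2.46 times lower by the means, with a log2 fold change of -1.28 ± 0.080. *Eif4ebp1* (gene ID 13685, chr8:27260327-27275656) read 17.9 and 20.8 RPKM in controls and 8.46 and 7.68 in mutants, 2.39 times lower, with a log2 fold change of -1.25 ± 0.090. In both genes the groups were separated by more than the spread within either. *Ddit4*, for REDD1, an inhibitor of mTORC1 that is also induced by hypoxia and glucocorticoids, read 40.5 and 44.3 RPKM in controls and 43.0 and 49.1 in mutants. Its groups overlapped and its log2 fold change was 0.12. The median of the 5 genes was -1.28, and their summed level was 78.7 and 86.4 RPKM in controls against 57.4 and 64.1 in mutants. *Ddit4* had the highest RPKM of the 5 in every library.

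**Figure D2:**
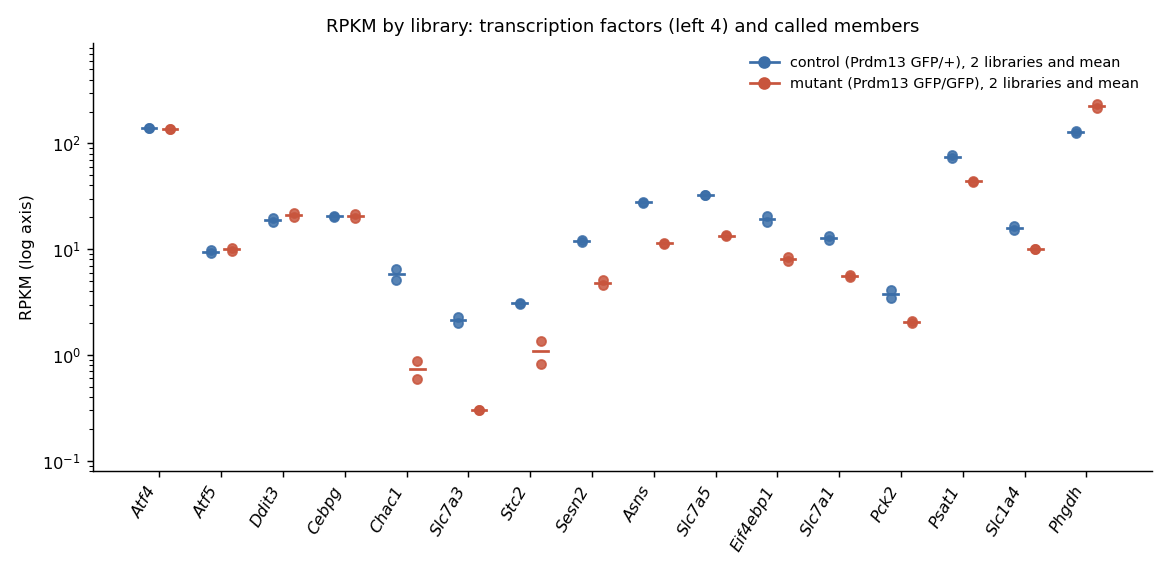
RPKM on a log axis in each of the 4 libraries for the 4 tested transcription factor genes and the 12 called genes, with a short line at the mean of the 2 libraries of a genotype. The libraries of both genotypes lie close together for *Atf4* at 136.7 to 140.2 RPKM, the mutant libraries lie below the controls for the 11 genes called lower, and of the called genes only *Phgdh* lies above.

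The serine pathway genes moved in opposite directions. PHGDH, PSAT1 and PSPH are its 3 successive enzymes, which make serine from a glycolytic intermediate, and SHMT2 and MTHFD2 pass the carbon of serine into the mitochondrial folate cycle. *Phgdh* (gene ID 236539, chr3:98313171-98339969) rose in the mutant, from 126.3 and 129.5 RPKM in the controls to 218.2 and 236.2. The mutant mean was 1.78 times the control mean, with a log2 fold change of 0.83 ± 0.052. *Psat1* (gene ID 107272, chr19:15905123-15925059) fell, from 77.1 and 72.8 RPKM to 44.4 and 43.2, 1.71 times lower, with a log2 fold change of -0.77 ± 0.051. Neither gene's groups overlapped, so the first and second steps of one pathway changed with opposite sign. *Psph*, the last step, had a log2 fold change of 0.10, with 10.9 to 12.3 RPKM in controls and 12.4 in both mutant libraries.

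*Shmt2* and *Mthfd2* had an adjusted p under 0.05 without reaching the fold of 1.5. *Shmt2* read 52.6 and 52.7 RPKM in controls and 36.3 and 38.0 in mutants, and *Mthfd2* 24.96 and 24.91 against 16.7 and 17.2. Their log2 fold changes were -0.50 and -0.55. Of the 5 genes in this group, 1 was called lower and 1 higher, and the median was -0.50. The summed level was higher in mutants (328 and 347 RPKM) than in controls (291.9 and 292.2), and *Phgdh* had the highest RPKM of the 5 in every library.

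The other 5 enzymes of amino acid metabolism all had negative fold changes, and 2 were called. *Asns*, for asparagine synthetase, which makes asparagine from aspartate and glutamine (gene ID 27053, chr6:7675165-7693209), read 27.9 and 27.4 RPKM in controls and 11.52 and 11.15 in mutants. The fold of means was 2.44, the log2 fold change was -1.28 ± 0.054, and the libraries within a genotype differed by far less than the genotypes. *Pck2*, for the mitochondrial form of phosphoenolpyruvate carboxykinase (gene ID 74551, chr14:55540263-55550020), read 4.12 and 3.48 RPKM in controls and 2.03 and 2.11 in mutants, a log2 fold change of -0.84 ± 0.12. *Pck2* lost its call when either mutant library was left out. *Gpt2*, for a mitochondrial alanine aminotransferase, had an adjusted p under 0.05 and a log2 fold change of -0.56, just short of the fold.

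*Cth* and *Cbs* form the route from homocysteine to cysteine, and neither was called. *Cth* read 2.97 and 4.03 RPKM in controls and 2.42 and 2.52 in mutants. *Cbs*, the least negative of these enzymes, read 3.80 and 3.45 RPKM in controls and 2.43 and 2.98 in mutants, a log2 fold change of -0.41 ± 0.13. The groups of both genes were separate, and the control libraries of *Cth* differed by more than the gap between the nearest libraries of the genotypes. The median of the 5 enzymes was -0.56, and their summed level was 54.8 and 53.9 RPKM in controls against 29.0 and 29.4 in mutants.

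Of the 8 amino acid transporters, 7 were tested and 4 fell in the mutant. *Slc7a3* and *Slc7a1* encode the cationic amino acid transporters CAT3 and CAT1, which carry arginine and lysine. *Slc7a3* (gene ID 11989, chrX:101079146-101090452) read 2.29 and 1.99 RPKM in controls and 0.305 and 0.303 in mutants, from 64 and 88 reads against 12 and 10. The control mean was 7.03 times the mutant mean and the log2 fold change was -2.47 ± 0.25. *Slc7a1* (gene ID 11987, chr5:148327410-148399904) read 12.1 and 13.3 RPKM in controls and 5.50 and 5.68 in mutants, 2.27 times lower, with a log2 fold change of -1.17 ± 0.073. Both cationic transporters were thus well below control in each mutant library.

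*Slc7a5* encodes LAT1, the light chain that exchanges large neutral amino acids such as leucine, and *Slc3a2* encodes the heavy chain with which LAT1 is paired at the membrane. *Slc7a5* (gene ID 20539, chr8:121881146-121907686) read 32.8 and 32.6 RPKM in controls and 13.5 and 13.3 in mutants, 2.44 times lower, with a log2 fold change of -1.28 ± 0.051. *Slc3a2* read 40.7 and 37.9 RPKM in controls and 29.2 and 30.1 in mutants, with an adjusted p under 0.05 and a log2 fold change of -0.40 that did not reach the fold. The heavy chain thus differed in the same direction as the light chain by a smaller amount. *Slc7a11*, the light chain that imports cystine in exchange for glutamate, was below the RPKM minimum at 0.777 and 0.728 RPKM in controls and 0.340 and 0.269 in mutants, from 83 and 123 reads against 51 and 34.

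*Slc1a4* and *Slc1a5* encode the related neutral amino acid exchangers ASCT1 and ASCT2. *Slc1a4* (gene ID 55963, chr11:20302180-20332713) read 15.1 and 16.6 RPKM in controls and 10.1 in both mutant libraries, 1.57 times lower, with a log2 fold change of -0.64 ± 0.067. It lost its call without control library 2. *Slc1a5* read 12.2 and 10.2 RPKM in controls and 10.15 and 11.48 in mutants, so its groups overlapped, and its log2 fold change of -0.05 was the least negative of the transporters. *Slc38a2*, for the glutamine transporter SNAT2, had a log2 fold change of -0.09. The median of the 7 transporters was -0.64, and the summed level of all 8 was 216 and 212.5 RPKM in controls against 162.1 and 165.3 in mutants.

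None of the 20 cytosolic aminoacyl-tRNA synthetases was called. At an adjusted p under 0.05, 9 were lower in the mutant and none higher, against 9.95% and 9.76% of all genes tested. Under the alternative settings described below, *Cars* and *Iars* alone stayed under that threshold throughout. With a library left out, the log2 fold changes of the 9 ran from -0.58 (*Cars*) to -0.23 (*Eprs*). The 9 were, in order of log2 fold change, *Cars* (-0.51), *Iars* (-0.45), *Nars* (-0.38), *Aars* (-0.36), *Lars* (-0.33), *Mars* (-0.31), *Yars* (-0.27), *Tars* (-0.27) and *Eprs* (-0.24), which charge tRNAs with cysteine, isoleucine, asparagine, alanine, leucine, methionine, tyrosine, threonine, and glutamate and proline. *Cars* had the most negative value, at 32.7 and 31.7 RPKM in controls and 21.6 and 23.7 in mutants. *Iars* read 65.1 and 63.5 RPKM in controls and 47.2 in both mutant libraries, so the genotypes were apart by much more than the libraries of either. *Gars*, for glycine, lay at -0.21 with separate groups. The other 10 lay between -0.10 (*Qars*, for glutamine) and 0.09 (*Farsa*, the alpha chain of the phenylalanine enzyme).

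*Farsa* read 50.4 and 54.6 RPKM in controls and 54.2 and 57.8 in mutants, so the most positive of the synthetases overlapped between genotypes. Its partner chain *Farsb* had a log2 fold change of 0.05 and was the only synthetase with both mutant libraries above both controls. In all, 10 of the 20 had both mutant libraries below both controls, against 30.3% of all genes tested, and 9 overlapped. The median was -0.15, and the summed level was 1118 and 1101 RPKM in controls against 979.3 and 1005 in mutants. Median differences between the 2 libraries of a pool were 0.08 (control) and 0.06 (mutant) on the log2 scale over the 46 tested genes, so the values near 0 were of the size of the library spread.

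**Figure D3:**
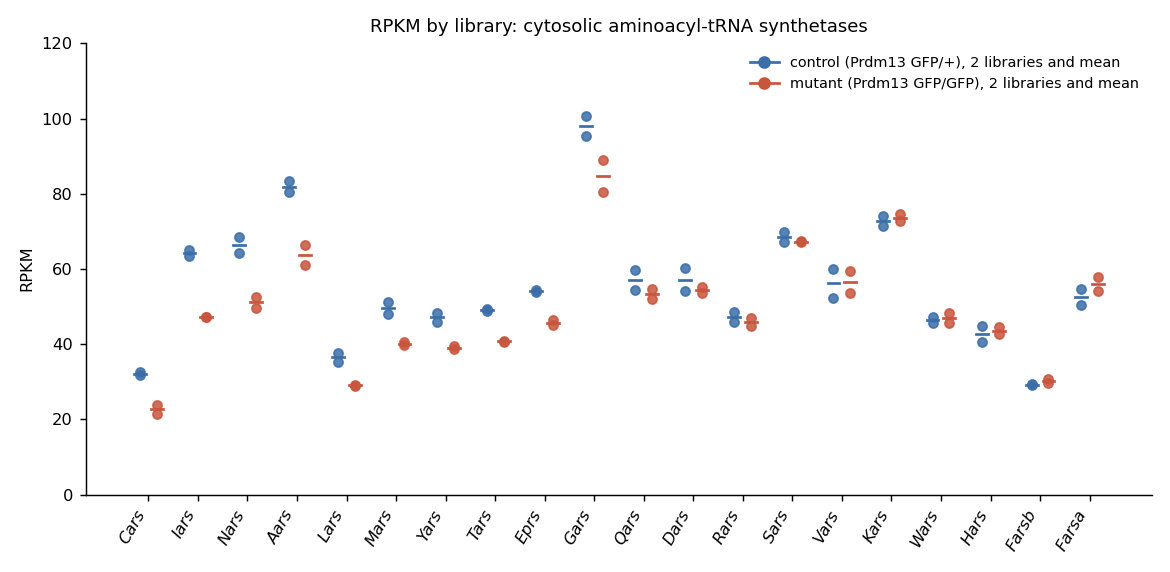
RPKM of the 20 cytosolic aminoacyl-tRNA synthetase genes in each of the 4 libraries, ordered by log2 fold change, with a short line at the mean of each genotype. The mutant libraries lie below the controls from *Cars* to *Gars* on the left, and the libraries of both genotypes mix or nearly touch from *Qars* to *Farsa* on the right.

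Grouped by known properties, 5 of 9 class I synthetases and 3 of 10 class II synthetases had an adjusted p under 0.05 and lower levels, with median log2 fold changes of -0.27 and -0.05. *Eprs*, with 1 enzyme of each class in a single protein, was left out of this split. Of the 8 synthetases in the multisynthetase complex, a cytosolic assembly of charging enzymes on scaffold proteins, 4 were lower at that threshold with a median of -0.17, and of the 12 outside it 5 were, with a median of -0.12. Whether these groups differ was not tested.

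The genes with the C/EBP-ATF core in their promoters are described apart. Promoter letters did not enter the rule for the set, but the set was chosen by these fold changes, so nothing is read from the counts. Several of the genes with the core are textbook targets of ATF4 for which such elements are known. The core and the choice of genes are therefore not independent. Of the 12 genes with the core, 9 were tested, and all 9 had negative log2 fold changes, from -2.84 (*Chac1*) to -0.21 (*Gars*), with a median of -0.45. Of these 9, 4 were called lower and 8 had an adjusted p under 0.05 with lower levels, against 2.67% and 9.95% of all genes tested. Of the 25 tested genes with an entry but without the core, 16 had negative values, 4 were called lower and 10 (40%) had an adjusted p under 0.05 with lower levels, and the median was -0.09. Among the synthetases, the 5 with the core had a median of -0.27, with 4 lower at that threshold, and the 8 with an entry and without it a median of -0.05, with 2 lower. Genes with no entry are missing from both sides of this split. They include the called genes *Slc7a5*, *Slc7a3* and *Eif4ebp1*, and the synthetases *Cars* (-0.51), *Nars* (-0.38) and *Lars* (-0.33). The synthetases *Hars*, *Rars*, *Vars* and *Wars*, also without an entry, lay between -0.04 and 0.03.

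Outside the set, 219 tested genes held the same core within the window. Their median log2 fold change was 0.01, with a range from -1.61 to 1.84. Negative values were found for 106 of the 219, against 47.6% of all genes tested. Of the 219, 12 (5.48%) were called lower, against 2.67% of all genes tested, and 37 (16.9%) had an adjusted p under 0.05 with lower levels, against 9.95%. Whether these shares differ was not tested. Genes with higher levels were not counted, and all genes tested include genes with no promoter entry. The 219 also hold *Atf3*, *Vldlr* and *Pycr1*, which belong to the list of other ATF4-responsive genes below.

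**Figure D4:**
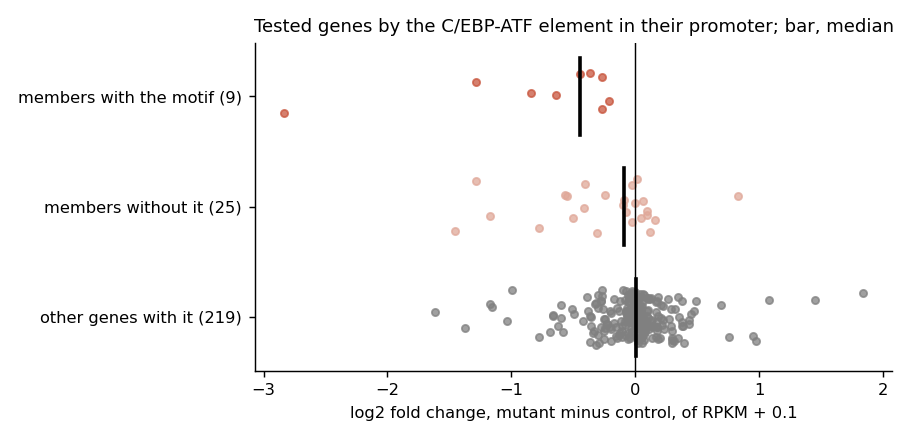
Log2 fold change of RPKM + 0.1, mutant minus control, of tested genes by the presence of TGATGNAA in the promoter window, with a bar at the median and points spread vertically for visibility. The 9 genes of the set with the core all lie below 0, the 25 without it lie on both sides of 0, and the 219 other genes with it centre on 0.01. The genes of the set were chosen by these fold changes, and those with no promoter entry are not shown.

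Other genes of the pathway were followed in lists that hold none of the 50. Of 16 other genes known to respond to ATF4, 13 were tested, with a median log2 fold change of -0.25. Of the 13, 4 were called lower (30.8%) and none higher, against 2.67% and 3.65% of all genes tested. This list was also chosen with earlier results known, so nothing is read from the share. *Atf3*, for a stress-induced factor, had a log2 fold change of -1.37 from 52 or fewer reads per library. It passed the RPKM minimum in the controls alone, at a mean of 1.33 RPKM against 0.452 in the mutants, so passing already required a difference and its p-value is not given. It was also called with no RPKM filter, and lost its call without mutant library 2. *Vldlr*, for a lipoprotein receptor that also binds reelin, fell by 0.66 (limma, adjusted p = 0.00126, up to 0.0321) and kept its call in all 13 alternatives. *Mthfd1l*, for a mitochondrial folate enzyme, fell by 0.61 (limma, adjusted p = 0.00449, up to 0.0639 over the alternatives) and lost its call in 3 of 13, namely with a pseudocount of 1, without control library 2 and without mutant library 2. *Slc6a9*, for the glycine transporter GlyT1, fell by 0.76 (limma, adjusted p = 0.0369, up to 0.162) and kept its call in 7 of 13.

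Upstream of ATF4, none of 16 genes for the eIF2 kinases, eIF2, its exchange factor and its phosphatase subunits was called, and their median was -0.07. At an adjusted p under 0.05, 2 were lower and none higher: *Eif2s2* at -0.25 (limma, adjusted p = 0.0220, up to 0.154) and *Eif2s3x* at -0.20 (limma, adjusted p = 0.0397, up to 0.213), for the beta and gamma subunits of eIF2. The largest difference was that of *Eif2ak2*, the kinase PKR, at -0.33 with overlapping libraries (limma, adjusted p = 0.314). *Eif2ak4*, which encodes GCN2 and was named after its value was seen, had a log2 fold change of -0.11 (limma, adjusted p = 0.372). RNA levels do not report phosphorylation of eIF2 or translation of *Atf4*, and neither was measured here.

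Most charging enzymes of mitochondria are encoded by separate genes. The list used here holds none for glycine, lysine or glutamine, so *Gars*, *Kars* and *Qars* have no counterpart in it. Of 17 mitochondrial synthetase genes none was called, the median was 0.04, and the largest difference was that of *Lars2* at 0.43 (limma, adjusted p = 0.00745, up to 0.0735 over the alternatives). The transcript of *Lars2* is known to share sequence with mitochondrial ribosomal RNA, so its reads are uncertain. The 3 scaffold genes of the multisynthetase complex were not called, with a median of 0.10, and *Eef1e1* had the largest value at 0.10 (limma, adjusted p = 0.229).

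Endoplasmic reticulum chaperones and other genes of the XBP1 and ATF6 arms of the unfolded protein response, which do not run through ATF4, were measured in 21 genes. Among them, *Herpud1* also held the C/EBP-ATF core in its promoter window. Of the 21, 1 was called higher and none lower. At an adjusted p under 0.05, 9 were higher and none lower, against 9.76% and 9.95% of all genes tested. Both mutant libraries lay above both controls for 17 and below them for 3, against 31.7% and 30.3% of all genes tested. The 3 below were *Herpud1*, *Atf6* and *Sel1l*, with log2 fold changes of -0.16, -0.10 and -0.05, and *Ern1* overlapped at -0.06. The median was 0.17, and the summed level was 1408 and 1387 RPKM in controls against 1645 and 1620 in mutants. *Xbp1*, for the factor itself, rose by 0.61 (limma, adjusted p = 0.00129, up to 0.0330 over the alternatives), and its fold was under 1.5 after quantile normalization or without control library 1.

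**Figure D5:**
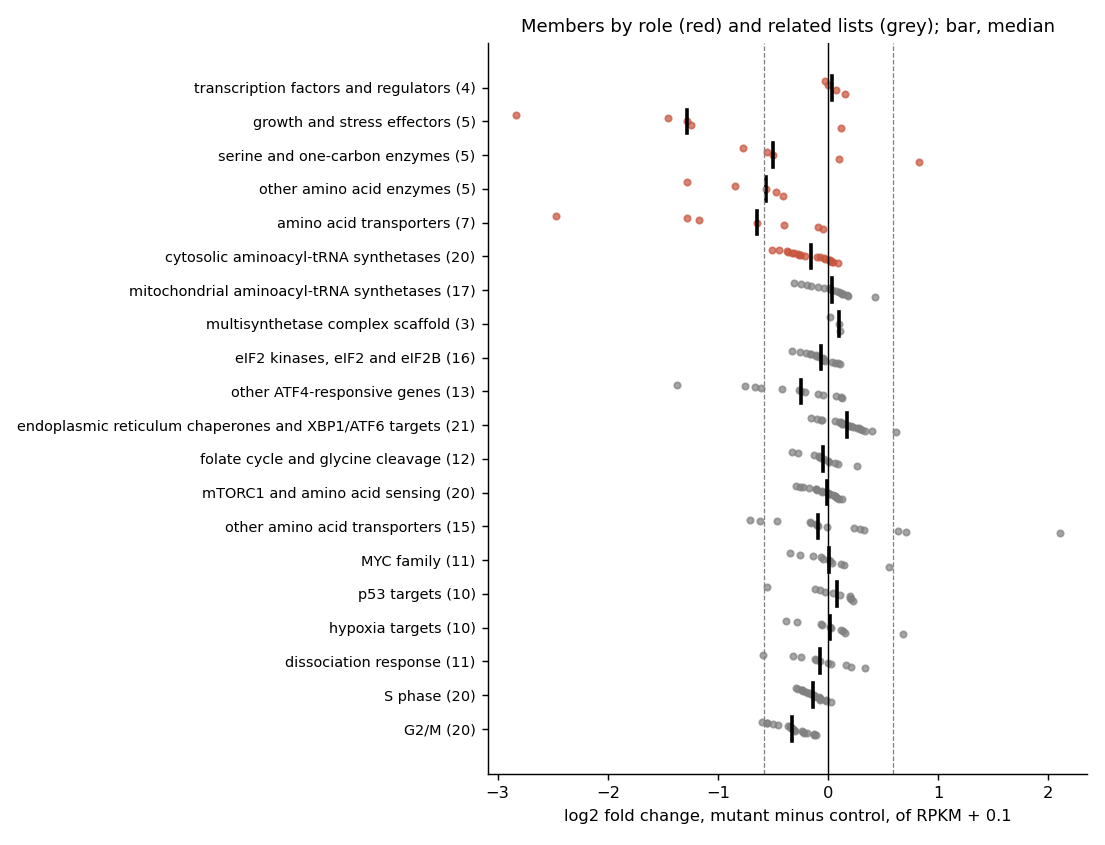
Log2 fold change of RPKM + 0.1, mutant minus control, for each tested gene of the 6 groups of the set in red and of 14 related lists in grey, with the number tested in brackets, a bar at the median and dashed lines at a fold of 1.5. The medians of the effectors (-1.28), transporters (-0.64) and enzymes (-0.56 and -0.50) lie left of those of the related lists, which run from -0.33 to 0.17. The medians of the synthetases (-0.15) and of the transcription factors and regulators (0.03) lie within that range. The genes of the set were chosen by these fold changes.

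Among 20 amino acid transporters outside the set, 15 were tested, with 2 called lower, 2 higher and a median of -0.09, and at an adjusted p under 0.05 2 were lower and 4 higher. *Slc1a3* and *Slc1a2*, the glutamate transporters GLAST and GLT-1 of radial glia and astrocytes, rose by 2.11 (limma, adjusted p = 2.8e-05, up to 0.00514) and 0.63 (limma, adjusted p = 0.000491, up to 0.0165), in all alternatives. *Slc36a4*, for an amino acid transporter of the PAT family, fell by 0.71 (limma, adjusted p = 0.00101, up to 0.0286) in all alternatives. *Slc6a15*, for a neuronal transporter of branched-chain amino acids, fell by 0.62 (limma, adjusted p = 0.0328, up to 0.118) and kept its call in 7 of 13 alternatives.

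Of 12 tested genes of the folate cycle and glycine cleavage none was called, with 2 lower and 1 higher at an adjusted p under 0.05, a median of -0.05 and the largest difference in *Mtr*, methionine synthase, at -0.33 (limma, adjusted p = 0.0426, up to 0.206). Of 20 genes of mTORC1 and amino acid sensing none was called, with 2 lower and none higher at an adjusted p under 0.05, a median of -0.01 and the largest difference in *Sesn3*, a relative of *Sesn2*, at -0.29 (limma, adjusted p = 0.0798).

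Lists for other programmes that can bear on the same genes were measured in the same way. None of 11 MYC family genes was called (median 0.00), and *Myc* had the largest value at 0.56 (limma, adjusted p = 0.0603). The 1 gene of that list with an adjusted p under 0.05 was *Mycn*, at -0.26 (limma, adjusted p = 0.0303, up to 0.146). None of 10 p53 targets was called (median 0.08), with *Plk2* at -0.55 (limma, adjusted p = 0.0160, up to 0.106) and *Bax* at 0.20 (limma, adjusted p = 0.0288, up to 0.169) under the p threshold. None of 10 hypoxia targets was called (median 0.02), with the largest value in *Ndrg1* at 0.68 (limma, adjusted p = 0.107), which passed the RPKM minimum in the mutants alone. The 2 hypoxia targets with an adjusted p under 0.05 were lower, *Slc2a1* at -0.38 (limma, adjusted p = 0.0153, up to 0.0951) and *Vegfa* at -0.28 (limma, adjusted p = 0.0247, up to 0.126). Of 11 genes of the response to tissue dissociation 1 was called lower (median -0.08), *Fos*, which fell by 0.59 (limma, adjusted p = 0.0129, up to 0.102) and kept its call in 9 of 13 alternatives. At an adjusted p under 0.05, *Ier2* was also lower at -0.31 and *Btg2* higher at 0.33 in that list.

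Genes of the cell cycle had mostly negative values. Of 20 S phase genes none was called and 6 had an adjusted p under 0.05 with lower levels, with a median of -0.14 and the largest difference in *Ccne1*, cyclin E1, at -0.29 (limma, adjusted p = 0.0134, up to 0.106). Of 20 G2/M genes 15 were lower at that threshold, against 9.95% of all genes tested, with a median of -0.33. Both mutant libraries lay below both controls for all 20 G2/M genes, against 30.3% of all genes tested. The 1 called was *Kif20b*, a mitotic kinesin gene, which fell by 0.60 (limma, adjusted p = 0.00323, up to 0.0573) and kept its call in 10 of 13 alternatives. In the 14 lists together, 8 of 199 tested genes (4.02%) were called lower, against 2.67% of all genes tested, and 3 higher, with a median of -0.06. The 8 became 3 with a pseudocount of 1, 4 without control library 1, 5 without control library 2 and 3 without mutant library 2.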

How the data were processed

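RNA-seq of sorted GFP-positive neural tube cells was analysed from 4 libraries, 2 for each genotype, with genotype and replicate number taken from the labels. The authors aligned reads to mm10 with TopHat2 (2.1.0), counted reads in the exons of RefSeq genes, normalized with TMM in edgeR (3.6.8), and deposited RPKM values for 24421 genes. These were used without further scaling. Log2(RPKM + 0.1) was tested with limma (3.58.1, lmFit and eBayes with a trend, two-sided, 2 residual degrees of freedom) in R (4.3.3), with Benjamini-Hochberg adjustment over the 12046 genes whose average RPKM reached 1 in control or mutant. The p-values measure the spread between technical replicates of 1 pool per genotype. On simulated data for this comparison, the fit called 192 of 197 changed and 19 of the unchanged genes among 11894 tested. These counts hold only for the sizes of change and the spread that were simulated. They do not give the share of real changes detected near the fold threshold.

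Whole reads, to a tolerance of 0.02 reads, were recovered from the RPKM steps for all 19200 genes above 0. Solved lengths lay within 5% of the annotated exon length for 72.1% of 18243 genes and 42 of the 50, and in simulation 97.9% of 3000 genes came out exact. Recovered totals were 11652156 and 18534083 reads (control) and 16541945 and 13991702 reads (mutant). The limit of detection was taken as 3 reads, for counting error only.

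The 50 genes, their groups and all other lists were chosen with earlier results of these data known. Called genes, *Atf4* and the extremes of each group are given by library, and of the related lists the called genes or else the gene with the largest difference. Markers and other genes of the related lists that are named were chosen after their values were seen. Gene coordinates and promoters are RefSeq (GRCm38.p6), matched by gene ID and symbol. Alternatives were pseudocounts of 1 and 0.01, no RPKM filter, an RPKM of at least 1 in both replicates of one genotype, eBayes without a trend, quantile normalization, median ratio scaling, a replicate block, leaving out each library and, chosen after seeing the data, voom on recovered reads. Tables and figures were made in Python (3.11.15) with pandas (2.3.3) and matplotlib (3.10.9).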

Additional observations from a re-analysis of the deposited data

How the results depend on the processing

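All 12 calls among the 50 genes were kept under the 2 other pseudocounts, both other filters, median ratio scaling, quantile normalization, eBayes without a trend, the replicate block and voom on recovered reads, and the sign of all 12 was kept in every alternative. Leaving out 1 library, with the lone sample of that genotype assumed to vary like the other, gave 10 to 12 of the 50 called lower and 1 called higher. *Slc1a4* and *Stc2* were lost and *Gpt2* gained without control library 2, *Pck2* was lost without either mutant library, and *Cth* was gained without control library 1. Other genes of the 50 were lower at an adjusted p under 0.05 without being called. Of these, *Shmt2*, *Mthfd2*, *Gpt2*, *Cars* and *Iars* stayed under that threshold in every alternative. *Slc3a2* and the other synthetases among them did not.

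Genes called lower in the related lists numbered 8, against 3 with a pseudocount of 1 and 3 to 6 with a library left out. Over all genes, leaving out a library gave 212 to 266 called lower, against 322, and 258 to 437 called higher, against 440, the lowest counts being those without mutant library 2. The median of the growth and stress effectors was -1.14 with a pseudocount of 1, against -1.28. That of the other amino acid enzymes ran from -0.68 to -0.56 with a library left out. The synthetase median was -0.20 after quantile normalization and ran from -0.20 to -0.12 with a library left out, against -0.15. The cause of these shifts was not tested.

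Replicate numbers were shared by the genotypes, and deviations of same-numbered libraries from their group means correlated at 0.05. No shared deviation was thus seen, and no pairing was used in the main fit. The labels do not say whether same-numbered libraries were prepared together. With the replicate block, 342 genes were called lower and 459 higher, and 11 of the 50 lower and 1 higher. Values from few reads, such as those of *Nupr1*, *Trib3* and *Cebpb*, are limited by depth.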
